A study of Rattus norvegicus with 6 samples.

Results

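Probe sets for the enzymes of cholesterol synthesis, with Insig1, were followed in the adrenals of SHR rats, a spontaneously hypertensive strain, and of WKY (Wistar-Kyoto) rats, its normotensive relative. The members were taken by gene name: 8 enzymes from Hmgcs1 to Dhcr7, and Insig1. Of these 9 genes, 8 had a probe set in the array's annotation, 22 probe sets among the 8740 that are not controls, and each of the 22 named 1 gene. No probe set named Hmgcs1, which makes hydroxymethylglutaryl-CoA at the head of the pathway. Whole adrenal gland of 3 SHR and 3 WKY samples was read on 6 Affymetrix RG-U34A arrays, which give 1 intensity per probe set in arbitrary units. Both strains are inbred and carried no treatment in the labels, and the labels give neither age nor sex. Nor do they say whether each sample was a different animal. The p-values therefore rest on differences among these samples that may be technical.

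Cholesterol is built from acetyl-CoA through mevalonate, isoprenoid diphosphates, squalene and lanosterol. The enzymes of this route are transcribed together under the sterol regulatory element binding proteins (SREBPs), and Insig1, itself a target of SREBPs, holds their precursor in the endoplasmic reticulum when sterols are plentiful. The adrenal cortex uses cholesterol as the precursor of every steroid hormone, and in the rat much of it comes from lipoproteins through the receptor Scarb1.

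Median intensities ran from 798.3 to 899.5 after the authors' scaling. The settings files put SHR replicate 1 and the 3 WKY arrays in a first hybridization run and SHR replicates 2 and 3 in a second. The second run held no WKY array, so the strains can be compared within a run only through SHR replicate 1. The ratio of 3' to 5' signal of the hexokinase control, a measure of RNA integrity, was highest in SHR replicate 2, at 4.21, the remaining arrays giving 1.96 to 2.54. The same ratio of the GAPDH control did not set SHR replicate 2 apart, at 0.95 against 0.90 to 1.14 in the remaining arrays. Adrenal markers were plainly present, with summed intensities of 310234 to 429624 in SHR and 346206 to 467564 in WKY for 8 of 9 cortex markers, and of 42065 to 53446 in SHR and 56556 to 65270 in WKY for 9 of 10 medulla markers. In whole tissue, fewer cells of a type and less RNA per cell cannot be told apart.

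No member probe set was called different between the strains. Of the 22 probe sets, 18 were bright enough to be tested, standing for all 8 genes, and 0 of the 18 passed limma at an adjusted p under 0.05, where 1.95% of the 5244 tested probe sets did. At an unadjusted p under 0.05 there were 2, both lower in SHR, against 13.9% of all tested probe sets in either direction (7.11% lower in SHR, 6.77% higher). They were the single Sqle probe set and 1 of the Fdps probe sets, which were also the 2 of 18 in which all SHR arrays lay below all WKY arrays. Of all tested probe sets 20.7% had no overlap, 10.5% with SHR below WKY and 10.2% with SHR above. Of the 18 log2 differences (SHR minus WKY, on log2(intensity + 181.5)), 15 were negative, with a median of -0.24, against 50.9% negative and a median of -0.0069 over all tested probe sets. By the brightest probe set of each gene, 7 of 8 were negative with a median of -0.31, while a fit that blocked on the run gave 8 of 8 negative and a median of -0.71, where the median of all tested probe sets was 0.04. A fit that blocked on the fluidics module instead gave 5 of 8 negative and a median of -0.16. The fit that blocked on the run sets SHR replicate 1 against the WKY arrays. In it 16 of 18 probe sets were negative (45.9% of all tested), 4 were at an unadjusted p under 0.05, all lower in SHR (9.19% of all tested in either direction, 5.23% lower), and 0 passed, where 0.381% of all tested probe sets did.

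**Figure D1:**
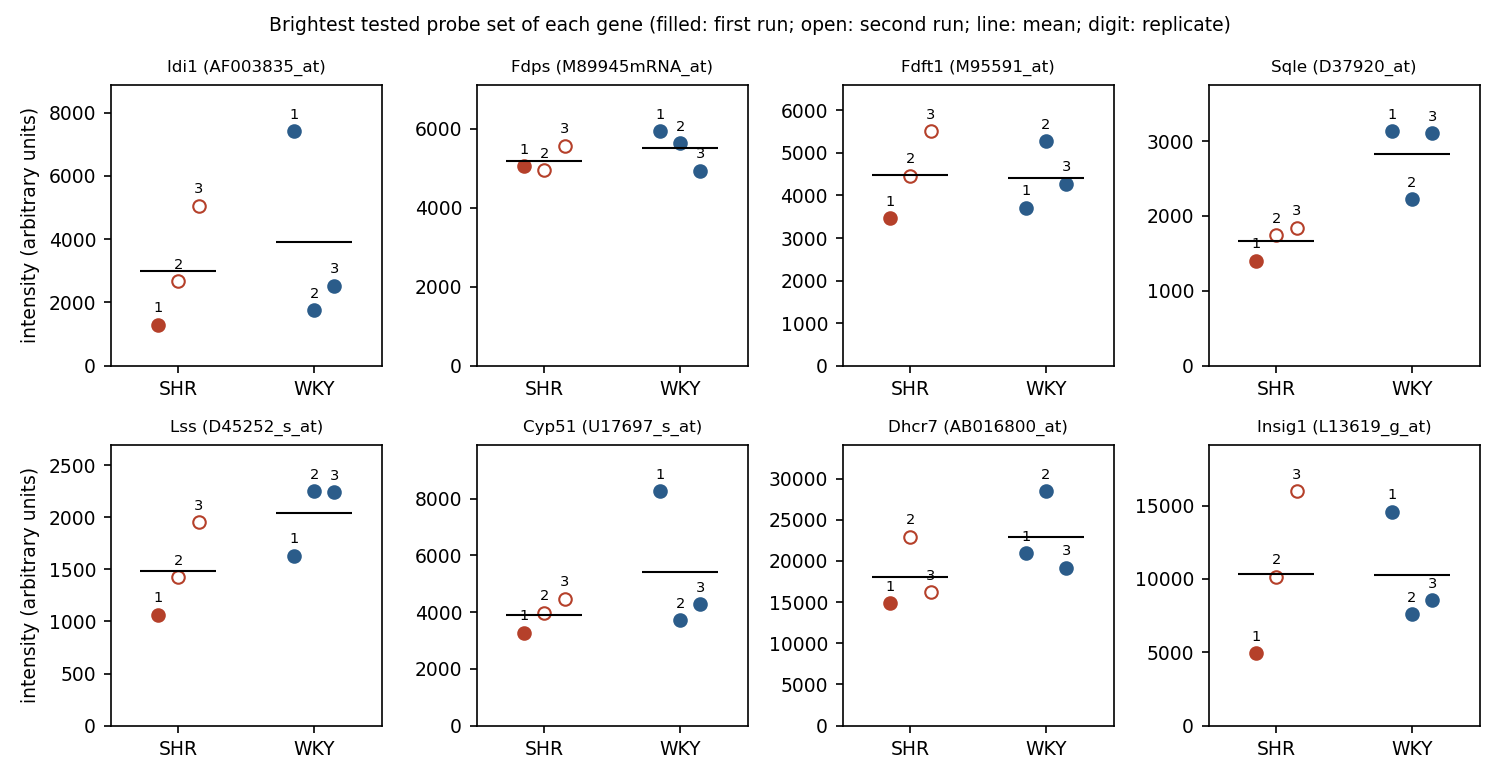
Intensity (arbitrary units, vertical axes from 0) of the brightest tested probe set of each of the 8 genes, by strain, with a point per array, its replicate number above it, filled points for the first run, open points for the second and a line at the strain mean. Only Sqle shows 3 SHR points that all lie below the 3 WKY points, and SHR replicate 1 is the lowest of the 6 arrays in 7 of the 8 panels, all but Fdps.

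Promoter windows were taken from RefSeq (GRCr8), from 250 bases before to 50 from the start of each gene, and 7 of the 9 members had one, Sqle and Fdft1 being the others. They were searched on both strands for the SREBP motif TCACNCCAC, for CCAAT, the letters bound by NF-Y, a partner of SREBPs, and for the GC box GGGCGG. The SREBP letters were in 0 of 7 windows, against 1.12% of 33469 windows of this length, CCAAT in 5 of 7, against 37.5%, and the GC box in 6 of 7, against 33.1%. No match of one motif overlapped a match of another in the 7 windows, and a match or its absence describes only these letters. The windows of Idi1 and Insig1, whose readings moved together across the arrays, and of Fdps are shown 5' to 3' on the strand of the gene, with CCAAT on either strand in capitals. They lie at chr17:66547475-66547774 (minus strand), chr4:8057720-8058019 (minus strand) and chr2:176804767-176805066 (minus strand).
Idi1: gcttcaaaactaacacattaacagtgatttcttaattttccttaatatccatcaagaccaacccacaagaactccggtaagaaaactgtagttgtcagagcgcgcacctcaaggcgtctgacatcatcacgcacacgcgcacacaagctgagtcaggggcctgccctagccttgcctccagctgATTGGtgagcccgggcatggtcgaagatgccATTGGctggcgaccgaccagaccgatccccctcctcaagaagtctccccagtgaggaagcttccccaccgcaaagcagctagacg
Insig1: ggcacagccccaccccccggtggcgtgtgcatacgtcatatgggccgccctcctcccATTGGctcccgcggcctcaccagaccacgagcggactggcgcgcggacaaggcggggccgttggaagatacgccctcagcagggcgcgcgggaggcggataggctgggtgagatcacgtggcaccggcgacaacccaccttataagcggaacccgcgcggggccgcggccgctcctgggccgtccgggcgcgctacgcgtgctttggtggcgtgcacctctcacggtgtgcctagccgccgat
Fdps: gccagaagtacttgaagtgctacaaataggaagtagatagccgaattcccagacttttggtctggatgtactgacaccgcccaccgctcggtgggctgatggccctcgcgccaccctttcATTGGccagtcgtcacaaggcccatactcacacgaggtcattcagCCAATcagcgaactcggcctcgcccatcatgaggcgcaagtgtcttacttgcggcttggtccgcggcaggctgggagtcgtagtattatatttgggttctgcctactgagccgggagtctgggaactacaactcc
Idi1 and Fdps each hold CCAAT letters at 2 places and Insig1 at 1, further from its start, and Cyp51 and Dhcr7 hold none.

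Idi1, which isomerizes isopentenyl diphosphate so that chain building can start, varied more between arrays of a strain than between strains. Its bright probe set (AF003835_at) read 1292, 2671 and 5062 in SHR replicates 1, 2 and 3, against 7408, 1747 and 2533 in WKY replicates 1, 2 and 3. WKY replicate 1 was the highest and SHR replicate 1 the lowest of the 6, and the strains overlapped throughout. The difference was -0.28 ± 0.58 (SE, log2; limma adjusted p = 0.870). On the log2 scale the SD was 0.92 in SHR and 1.03 in WKY, exceeded by 2.63% and 2.02% of the tested probe sets, whose median SDs were 0.21 and 0.24. The second Idi1 probe set (rc_AI045395_at) was too dim to be tested, at 19.3 to 176 in SHR and 24.9 to 192.7 in WKY, with its highest readings again in SHR replicate 3 and WKY replicate 1.

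Fdps, which joins isoprenoid units into farnesyl diphosphate at the branch point to sterols, gave different pictures in its probe sets. The probe set M89945mRNA_g_at read 2868, 2712 and 2714 in SHR, against 5224, 3917 and 3885 in WKY, with no overlap. It differed by -0.61 ± 0.16 (SE, log2; limma unadjusted p = 0.00622, adjusted p = 0.134), was at an unadjusted p under 0.05 in all 6 fits that left out 1 array, and stood at -0.56 with the run as a block. Its SD in SHR, 0.04 on the log2 scale, was exceeded by 96.1% of the tested probe sets. The companion M89945mRNA_at, named for the same sequence record, read 5051, 4944 and 5569 in SHR and 5934, 5628 and 4941 in WKY, which overlapped, and differed by -0.08 ± 0.14 (adjusted p = 0.849). The remaining one, rc_AI180442_at, was not tested, with SHR arrays at 374.6 to 403.7 and WKY arrays at 319.7 to 1105. No single strain difference for Fdps can be read from these probe sets.

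Fdft1, the squalene synthase that commits farnesyl diphosphate to sterols, showed no shift that its probe sets shared. M95591_at read 3460, 4469 and 5507 in SHR and 3712, 5270 and 4271 in WKY (0.01 ± 0.21, SE, log2; limma adjusted p = 0.991). M95591_g_at and rc_H33426_at stood at -0.04 ± 0.41 and -0.30 ± 0.23. In M95591_g_at SHR replicate 2 was low, at 538.1 against 1715 and 1850 in SHR replicates 1 and 3. The fourth, rc_H33426_g_at, was too dim to be tested, at 301.4 to 622.5 in SHR and 185.2 to 618.3 in WKY.

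Sqle, the squalene epoxidase that adds the first oxygen of the sterol route and is a rate-limiting step after mevalonate, gave the largest strain difference among the members. Its probe set (D37920_at) read 1400, 1743 and 1844 in SHR, against 3129, 2225 and 3106 in WKY. Every SHR array was below every WKY array, and the means were 1662 ± 233 in SHR and 2820 ± 515 in WKY (SD, n = 3 each). The log2 difference was -0.70 ± 0.20 (SE), a ratio of 0.617 on that scale, with a limma unadjusted p of 0.00762 and an adjusted p of 0.146, so it did not pass. In the 6 fits without 1 array it was at an unadjusted p under 0.05 each time, and with the run as a block it stood at -0.91 (adjusted p = 0.345). It rests on 1 probe set.

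Lss, the lanosterol synthase that closes the sterol rings, read 1065, 1422 and 1955 in SHR and 1631, 2249 and 2239 in WKY by its brightest probe set (D45252_s_at). SHR replicate 3 lay among the WKY arrays and the other SHR arrays below them, giving -0.44 ± 0.24 (SE, log2; limma adjusted p = 0.463). U31352_at stood at -0.17 ± 0.30. The dim E12275cds_s_at was not tested, and read 166.8 to 703.4 in SHR and 174.3 to 224 in WKY, its high value being SHR replicate 2.

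Cyp51, the demethylase that acts on lanosterol, had 5 tested probe sets, 4 with negative and 1 with positive differences, none called. The brightest, U17697_s_at, read 3281, 3982 and 4478 in SHR and 8256, 3709 and 4275 in WKY (-0.37 ± 0.29, SE, log2; limma adjusted p = 0.617). The high mean in WKY came from WKY replicate 1, and the other WKY arrays lay within the SHR range. In rc_AA963449_s_at SHR replicate 1 stood apart, at 827.4 against 1764 and 2815 in SHR replicates 2 and 3, and 3026, 2272 and 2122 in WKY (-0.54 ± 0.37). Within the first run it stood at -1.38, the lowest of the 18. In rc_AI230255_at the low array was SHR replicate 3, at 192.5 against 736.7 and 656.7 in SHR replicates 1 and 2 (-0.53 ± 0.37). AB004096_at and rc_AA997614_s_at stood at -0.11 ± 0.18 and 0.16 ± 0.26.

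Dhcr7, the reductase of the last step to cholesterol, read 14849, 22964 and 16212 in SHR and 20938, 28451 and 19173 in WKY (AB016800_at; -0.35 ± 0.21, SE, log2; limma adjusted p = 0.503). SHR replicate 2 lay within the WKY range and the other SHR arrays below it. AB016800_g_at, named for the same record, read 14053, 16405 and 12257 in SHR and 13917, 20246 and 15421 in WKY, and stood at -0.20 ± 0.17. In both probe sets the highest array of each strain was replicate 2, unlike Idi1 and Insig1.

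Insig1, the sterol sensor rather than an enzyme, followed Idi1, with whose promoter its own is shown, across the arrays. L13619_g_at read 4949, 10130 and 15965 in SHR, against 14567, 7580 and 8558 in WKY. L13619_at read 5461, 7030 and 15195 in SHR, against 10558, 5740 and 4650 in WKY. In both, SHR replicate 3 was the highest array and WKY replicate 1 the second, and the strains overlapped widely. Within WKY only L13619_g_at had the order of Idi1. The differences were -0.08 ± 0.41 and 0.34 ± 0.41 (SE, log2; limma adjusted p = 0.961 and 0.759), and within the first run they became -0.96 and -0.26. The log2 SDs in SHR, 0.83 and 0.75, were exceeded by 3.60% and 5.09% of the tested probe sets.

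**Figure D2:**
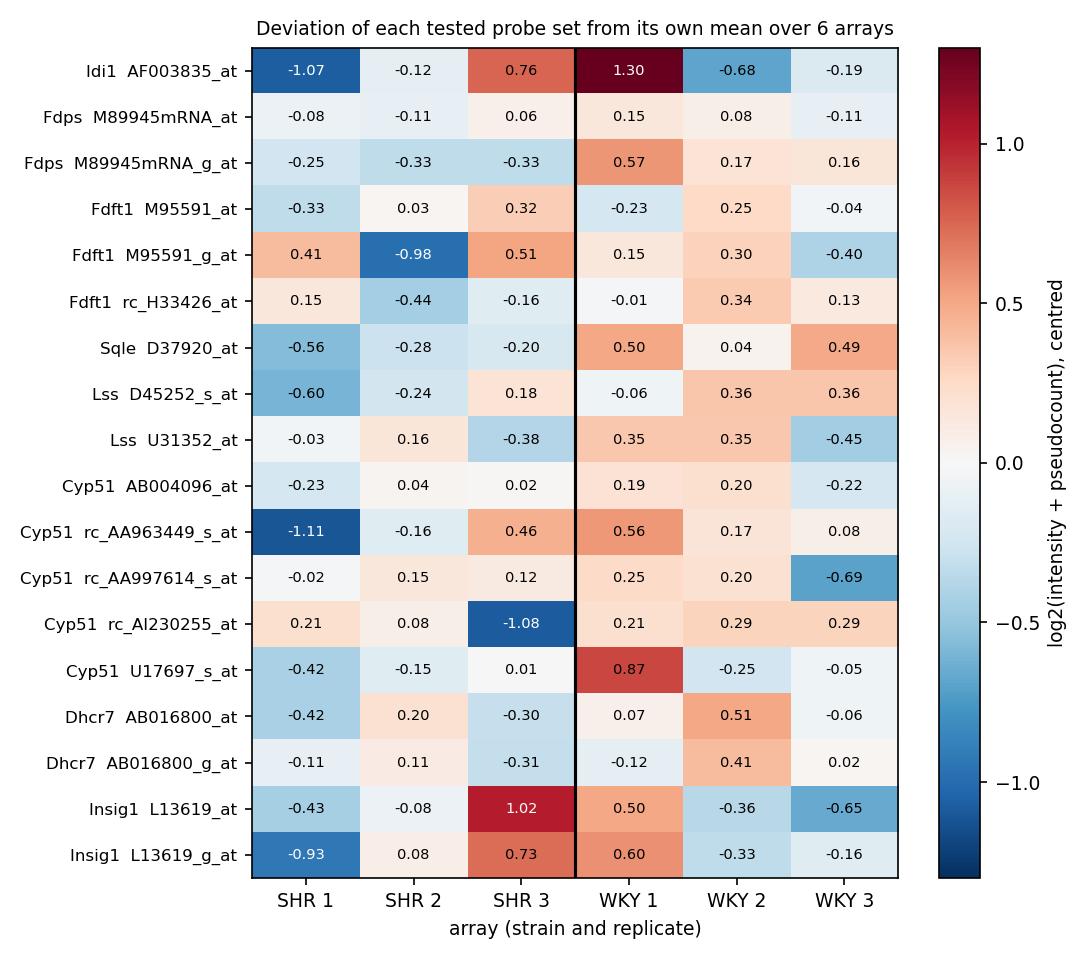
Each of the 18 tested probe sets (rows, in pathway order with Insig1 last) in each of the 6 arrays (columns, SHR then WKY), as log2(intensity + pseudocount) minus the row's own mean, printed in each cell and coloured from blue (below) to red (above). SHR replicate 1 is above the row's mean in 3 of 18 rows, and the deepest reds are Idi1 in WKY replicate 1 and Insig1 in SHR replicate 3.

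Array by array, SHR replicate 1 held the most readings below all WKY arrays, by gene and by probe set. By the brightest probe set of each gene, SHR replicate 1 was below all 3 WKY arrays in 7 of 8 genes, and over all tested member probe sets in 10 of 18, where 25% of all tested probe sets were. SHR replicate 2 was below all WKY arrays in 2 of 8 genes and 7 of 18 probe sets (25.8% of all tested), and SHR replicate 3 in 2 of 8 and 6 of 18 (33%). Above all WKY arrays there were 1 of 18 probe sets in SHR replicate 1 (30.1% of all tested), 0 of 18 in SHR replicate 2 (27.3%) and 4 of 18 in SHR replicate 3 (24.2%). Against the mean of the WKY arrays, the median log2 difference of the 8 genes was -0.71 in SHR replicate 1, -0.20 in SHR replicate 2 and -0.01 in SHR replicate 3. Over all tested probe sets those medians were 0.04, 0.02 and -0.04. SHR replicate 1 was the lowest of the 6 arrays in 7 of 8 genes and in 9 of 18 probe sets, against 12.9% of all tested probe sets. The count by gene therefore depends on which probe set stands for the gene.

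At the other end, WKY replicate 1 was the highest array for 4 of the 8 genes, Idi1, Fdps, Sqle and Cyp51. Leaving it out moved the median over the 18 probe sets to -0.08 and over the 8 genes to -0.07, with Idi1 at 0.29. Leaving out SHR replicate 1 moved the median over the genes to -0.14, with 5 of 8 negative. Leaving out SHR replicate 3 moved it to -0.47, with 8 of 8 negative. None of these fits, nor any of those that left out another array, called a member probe set.

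**Figure D3:**
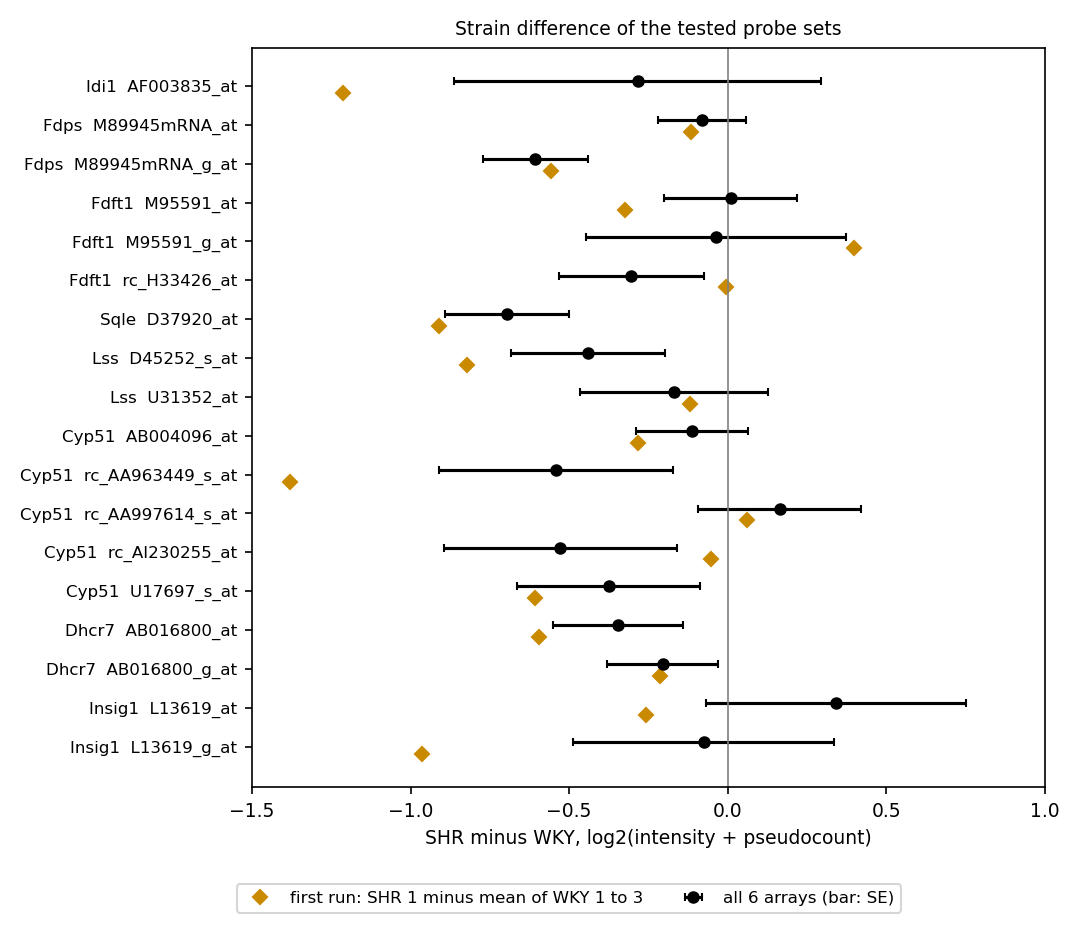
Log2 difference, SHR minus WKY, of the 18 tested probe sets, from all 6 arrays (black points with SE bars) and from the first run alone (diamonds, SHR replicate 1 minus the mean of the 3 WKY arrays, 1 array with no error of its own). The black points run from -0.70 (Sqle) to 0.34 (Insig1), and the diamonds of Idi1, Insig1 and 1 Cyp51 probe set lie far to the left of their black points.

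The summed fat cell markers were lowest in SHR replicate 1 and highest in WKY replicate 1, though the single markers differed among themselves. Of 9 fat cell markers 7 had probe sets, with summed intensities of 58157, 59293 and 71813 in SHR replicates 1, 2 and 3, against 114372, 78792 and 63379 in WKY replicates 1, 2 and 3. None of the 7 was at 0. Ucp1, the uncoupling protein of brown fat, read 2197, 4468 and 15049 in SHR and 11472, 9626 and 2770 in WKY (A04674cds_s_at). Fabp4, a fatty acid carrier of fat cells, read 1599, 2729 and 4573 in SHR and 16168, 8507 and 3869 in WKY. Cfd, a fat cell protease, fell by 2.00 on the log2 scale (limma adjusted p = 0.0324, and 0.319 with the run as a block), reading 1744, 1189 and 1906 in SHR and 11114, 7341 and 3958 in WKY. In SHR, Ucp1 and Fabp4 had the order of Idi1 and Insig1, but Cfd, Lipe, Lep and the brightest Lpl probe set did not. Lipe, a lipase of fat cells that the adrenal cortex also expresses, ran the opposite way in SHR, at 12616, 9690 and 7889 against 17602, 10289 and 12656 in WKY (U40001_at). Lep, the fat hormone leptin, was nearly level in its brightest probe set (D49653_s_at), at 16343 to 18381 in SHR and 16177 to 17651 in WKY. Lpl, a lipase that frees fatty acids from lipoproteins, stood at 0.38 in its brightest probe set (L03294_at). That probe set read 5504, 6849 and 4859 in SHR and 5868, 5629 and 2445 in WKY. In SHR the Lpl probe set L03294_g_at had the order of Idi1 and Insig1, at 2967, 3466 and 3874. It read 7570, 4139 and 4132 in WKY, without overlap (-0.54). The remaining Lpl probe set, rc_AI237731_s_at, stood at -0.03, with 3471, 5171 and 4788 in SHR and 8059, 4182 and 2718 in WKY. Plin1, the remaining marker, was too dim to be tested, at 109.6 to 163 in SHR and 142.8 to 829.7 in WKY. WKY replicate 2 stood above WKY replicate 3 in Ucp1, Fabp4 and the Insig1 probe set L13619_at (5740 against 4650). It stood below WKY replicate 3 in Idi1 and L13619_g_at. Of 6 kidney markers, all with probe sets, the sums were 6757 to 8987 in SHR, and 15898 in WKY replicate 1 against 8515 and 8439 in WKY replicates 2 and 3. The single kidney markers differed among themselves. Kap, a kidney protein, read 2050 in WKY replicate 1 and 18.9 to 58.7 in the other 5 arrays. Slc34a1 (AB013455_g_at) was also highest in WKY replicate 1, at 4658. Slc12a3 (U10097_at) was lowest there, at 531.7. Aqp2 (D13906_at), Umod and Slc12a1 were not highest there, at 1014, 847.7 and 163.2. Liver markers, from a tissue that makes much cholesterol, summed to 11145 to 11957 in SHR and 12645 to 14348 in WKY (11 of 11 with probe sets). By the brightest probe set 6 of them were tested, with 0 called and 3 negative. Albumin (rc_AA860062_at) read 492.6 to 741.1 in SHR and 507.6 to 652 in WKY. Serpina1 (rc_AI010453_at) read 1524, 327.4 and 1129 in SHR and 2528, 2374 and 2607 in WKY (-1.36, limma adjusted p = 0.167). Ttr (rc_AA945169_at) had every SHR array above every WKY array (0.38, 0.414). The part of other tissues in the members' readings was not tested.

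**Figure D4:**
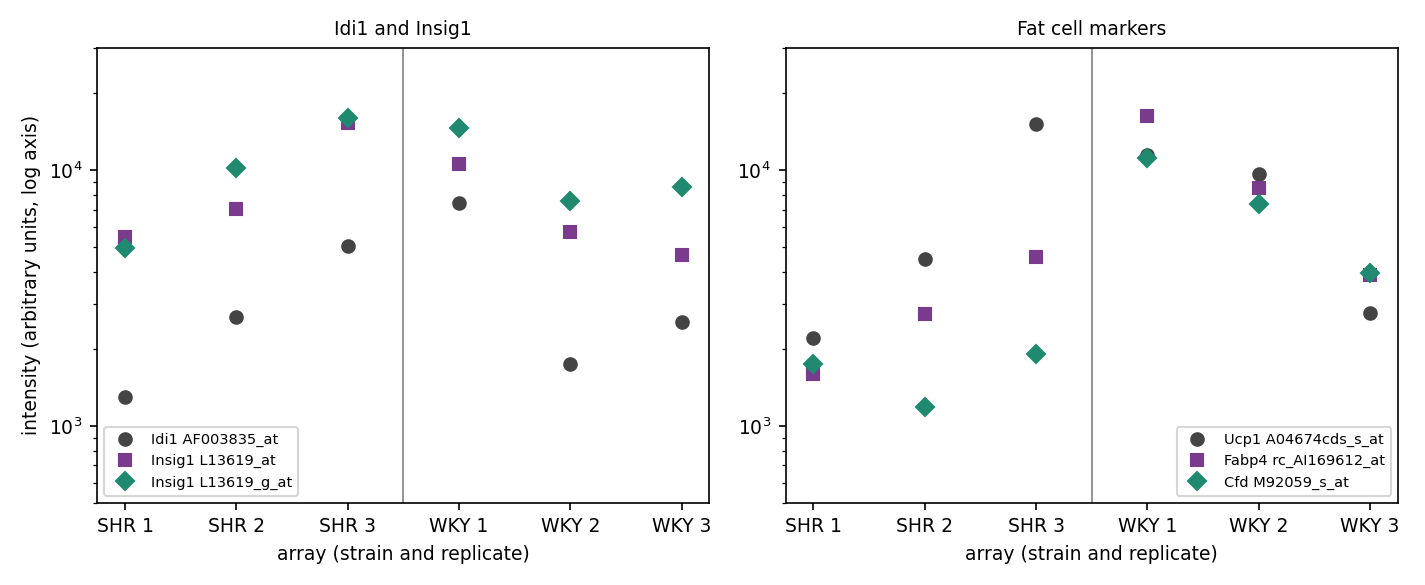
Intensity (arbitrary units, log axis) in each of the 6 arrays of Idi1 and the 2 Insig1 probe sets (left panel) and of 3 of the 7 fat cell markers, Ucp1, Fabp4 and Cfd (right panel), with SHR arrays left of the grey line and WKY arrays right of it. SHR replicate 3 and WKY replicate 1 are the high arrays for Idi1, Insig1 and Ucp1, whereas Cfd is low in all 3 SHR arrays.

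The remaining enzymes of the pathway gave no call either. Of 14 listed, 8 had a probe set and 6 were tested, with 0 called, 5 of 6 negative and a median of -0.27, against -0.0099 over the 3144 genes tested, of which 51.6% were negative. Mvd, which decarboxylates mevalonate diphosphate, read 1438, 2019 and 1731 in SHR and 2998, 2170 and 2211 in WKY, with no overlap (-0.46 ± 0.20, SE, log2; limma unadjusted p = 0.0485, adjusted p = 0.353). Acat2, the thiolase that makes acetoacetyl-CoA in the cytosol, stood at -0.46 ± 0.28 (0.512), Mvk, the mevalonate kinase, at -0.39 ± 0.33 (0.656) and Msmo1, a sterol methyl oxidase, at -0.16 ± 0.26 (0.839). In 10 of the 11 probe sets of these enzymes, dim ones included, WKY replicate 1 was the highest of the 6 arrays, and in 9 of the 22 member probe sets, against 15.7% of all probe sets. The Acat2 probe sets differed in how far this went. The brightest, rc_AA859980_g_at, read 3727, 4170 and 4609 in SHR, against 9410 in WKY replicate 1 and 4409 and 4631 in WKY replicates 2 and 3. The other, rc_AA859980_at, read 1014, 1471 and 1282 in SHR, against 3855, 1791 and 1981 in WKY, with every SHR array below every WKY array (-0.86 ± 0.29, SE, log2; limma unadjusted p = 0.0188, adjusted p = 0.233).

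Neighbouring steps of lipid metabolism divided. Of the sterol-sensing genes only Srebf1 and Mbtps2 had probe sets, at 0.06 ± 0.19 and 0.34 ± 0.24 (SE, log2; limma adjusted p = 0.922 and 0.579). Of 5 tested genes of fatty acid synthesis, 1 was called, the malic enzyme Me1. Its brightest probe set, rc_AI171506_g_at, rose by 1.29 ± 0.18 (adjusted p = 0.0125). The call was lost with the run as a block (0.140), within the first run (0.293), with the module as a block (0.109) and without SHR replicate 1 (0.0603) or SHR replicate 2 (0.0787). Scd, a desaturase abundant in fat, read 4059, 5636 and 8484 in SHR and 25442, 15775 and 5215 in WKY (-1.12 ± 0.53, 0.395), the same order of arrays as Fabp4 in SHR and in WKY. Fasn and Acaca stood at -0.37 and -0.08. The other Fasn probe set, M76767_s_at, overlapped between the strains and stood at -0.62 ± 0.25 (0.325). Of 10 tested genes of cholesterol uptake, storage and use, 1 was called: Scp2, a sterol carrier, rose by 1.59 ± 0.13 (0.00104), a call lost only within the first run (0.138) among the alternatives tried. Scarb1 and Star, which brings cholesterol into mitochondria, stood at -0.10 and -0.20. Lipa, the lysosomal acid lipase, stood at -0.27, Lipe, the cholesteryl ester hydrolase, at -0.41 and Soat1, which esterifies cholesterol, at 0.31. None was called. Every Lipa probe set had all SHR arrays below all WKY arrays, beside 10.5% of all tested probe sets. The Lipa probe sets rc_AA874784_s_at and S81497_s_at stood at -0.71 (limma adjusted p = 0.0834) and -0.52 (0.167). The other Lipe probe set, X51415cds_s_at, overlapped and stood at -0.64 (0.275).

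Prenyl transferases, which draw on the farnesyl and geranylgeranyl diphosphates of the same route, had 4 of 5 listed genes tested and 0 called. By the brightest probe set of each gene 3 were without overlap, all lower in SHR, beside the 10.5% of all tested probe sets. Fnta, the subunit shared by farnesyl and geranylgeranyl transferases, read 1893, 1574 and 1608 in SHR, against 2989, 2543 and 2428 in WKY (-0.60 ± 0.17, SE, log2; limma adjusted p = 0.142). Fntb, the partner subunit of the farnesyl transferase, stood at -0.55 ± 0.23 (0.339). Its other probe set, rc_AI230914_at, overlapped, at 1431 to 1734 in SHR and 1721 to 2329 in WKY (-0.32 ± 0.18, 0.478). Rabggtb, a subunit of the Rab geranylgeranyl transferase, stood at -0.46 ± 0.19 (0.346), while its partner Rabggta was at -0.01 ± 0.23 (0.990). Pggt1b, the remaining listed gene, was too dim to be tested. Its brighter probe set (rc_AI235344_at) overlapped, at 425.8 to 626.5 in SHR and 101.2 to 451.7 in WKY, with the higher mean in SHR (543.5 against 282.2). Unlike Idi1 and Insig1, Fnta read lower in each SHR array than in any WKY array, and stood at -0.45 with the run as a block. Of the ketone body enzymes, Acat1 stood at 0.17 and Bdh1 at -0.08, neither called.

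The genes whose readings most resembled the mean profile of the 8 members across the 6 arrays were not sterol enzymes. Of 3136 other genes ranked, the nearest were Adcy6, an adenylyl cyclase (Pearson correlation 0.98), Elob, a subunit of the elongin complex (0.98), Pcca, of propionyl-CoA carboxylase (0.96), Acadvl, an acyl-CoA dehydrogenase (0.96), Sdcbp, the scaffold syntenin (0.95), and Psmc4, a proteasome subunit (0.95). These are descriptions over 6 arrays that share their scaling and were picked as the highest of 3136. Adcy6 read 497.8, 909.9 and 1105 in SHR and 1261, 999.1 and 1004 in WKY, low in SHR replicate 1 and high in WKY replicate 1.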

How the data were processed

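The deposited table gives 1 linear intensity per probe set and array, scaled by the authors (the mean after trimming was 2504 in every array); the algorithm is not given in the sources used here. A settings file per array, deposited by the authors (other values, written by the instrument software), gave 1 chip lot, 1 fluidics station, the module and the recorded hybridization times, which fell into 2 runs over 60 minutes apart. Gene names came from GEO's platform annotation, and 0 symbols needed updating against RefSeq (6985 of 7006 with 1 symbol matched).

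Values were taken as log2(intensity + 181.5), the 20th percentile of all values, which understates differences of dim probe sets. Probe sets above the 40th percentile of mean log2 value were tested (5244) with limma 3.58.1 in R 4.3.3 (eBayes with trend, no covariate, two-sided, Benjamini-Hochberg over all tested probe sets, threshold 0.05). SHR was compared with WKY, each sample placed by its title. A gene stood by its brightest tested probe set. The number of arrays, 3 per strain, limits the precision. The members and the lists were chosen with earlier results of these data known. Named beside the members are up to 4 genes of smallest p per list and some set genes. Of the set genes, those with no probe set of their own are not reported here.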

Additional observations from a re-analysis of the deposited data

How the results depend on the processing

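Under the 18 alternatives no member probe set was called. The median over member genes, -0.31, moved to -0.71 both with the run as a block and within the first run. With the module as a block it was -0.16, with 5 of 8 genes negative. SHR replicate 1 and WKY replicate 3 were each alone on a module, so that fit sets neither against another array. When 1 array was left out, the median over member genes ran from -0.47 to -0.07. The median over tested member probe sets, -0.24, ran from -0.34 to -0.076 there, the nearest to 0 being without WKY replicate 1. The labels do not say whether replicate numbers pair the samples. Same-numbered deviations correlated at 0.0009 to 0.071, and only SHR replicate 3 correlated most with its own number. With 3 arrays per strain these values cannot decide it. With the replicate block limma called 53 of 5244 probe sets in place of 102, and 0 of 18 members in both. Over all probe sets the calls also fell to 60 without the trend, 46 with the module as a block, 38 to 59 without 1 array, 20 with the run as a block and 1 within the first run.

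Of 712 values of 40 named probe sets under alternatives, 664 kept their direction and side of the threshold, 42 changed sign and 6 (the brightest probe sets of Me1 and Scp2) lost a call. None of the 42 was a called difference, and the cause was not tested. With the module as a block the sign turned for Idi1 (0.016), Cyp51 rc_AA997614_s_at (-0.089), Insig1 L13619_g_at (0.27), Srebf1 (-0.063), Acaca (0.045), Rabggta (0.040) and Scarb1 (0.18). With the run as a block or in the first run alone it turned for Fdft1 M95591_at (-0.32) and M95591_g_at (0.40), Insig1 L13619_at (-0.26) and Rabggta (0.20). Rabggta also turned with quantile scaling (0.0078) and median scaling (0.020), and Fdft1 M95591_g_at with a pseudocount 4 times larger (0.0016).

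Both signs occurred among the fits without 1 array, which ran from -0.74 to 0.29 for Idi1, from -0.15 to 0.18 for Fdft1 M95591_at, from -0.30 to 0.45 for M95591_g_at and from -0.14 to 0.33 for Cyp51 rc_AA997614_s_at. They ran from -0.081 to 0.68 for Insig1 L13619_at and from -0.46 to 0.37 for L13619_g_at. Outside the members the ranges were -0.41 to 0.11 for Msmo1, -0.0064 to 0.19 for Srebf1, -0.21 to 0.026 for Acaca, -0.12 to 0.15 for Rabggta, -0.20 to 0.023 for Bdh1 and -0.28 to 0.057 for Scarb1.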
